A study of Mus musculus with 20 samples.

Results

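NK cells sorted as NK1.1+ were set against monocytes/macrophages sorted as Mac-1+, both from C57BL/6 mice, to ask which myeloid genes were as high or higher in the NK1.1+ gate and which were not. The comparison used 4 of the 20 arrays of the series, 2 per population, chosen by their sample titles. The groups are called NK (NK1.1+ cells) and Monocyte (Mac-1+ cells) below. Each group is named by a single surface marker: the sources used here give no tissue, no age of the animals and no further gates. The replicates are biological by the labels, which name no animals. The p-values rest on the spread between replicate arrays, estimated over all 20 arrays of the series and not over these 4 alone. RNA equivalent to 3000 cells per array was amplified in 2 cycles, labelled with biotin and read on Affymetrix Mouse Genome 430 2.0 arrays, and the remaining 16 arrays cover 8 other blood cell populations. In such bulk samples, fewer cells of a type and less RNA per cell cannot be told apart.

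NK cells are innate lymphocytes that kill infected or transformed cells by releasing perforin and granzymes, and their receptors of the Ly49 and NKG2 families read MHC class I molecules on the target. Mac-1 is the integrin made of CD11b and CD18, carried by monocytes, macrophages and neutrophils, and also by mature NK cells, so this marker alone does not separate them. Mouse blood monocytes come in a classical form, which expresses CCR2 and Ly6C and enters inflamed tissue, and a patrolling form, which expresses the fractalkine receptor CX3CR1 and crawls along the endothelium. Neutrophil granules are filled in waves: the proteases of primary granules are transcribed first, in promyelocytes, and the proteins of secondary and tertiary granules follow in later precursors.

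Intensities are linear values that the authors scaled to a trimmed mean of 100 on each array. A difference is NK minus Monocyte on the scale log2(intensity + 6.75), given with its limma standard error, and it understates the change of dim genes. A gene was called higher or lower in NK when its adjusted p (limma, Benjamini-Hochberg over all 14044 genes tested) was under 0.05 and its difference was at least 1 in size. Replicates correlated at r = 0.972 within NK and 0.959 within Monocyte across genes. Between the gates r was 0.836 to 0.868, close to the 0.869 to 0.886 of NK with NKT (the NK1.1+ CD3ε+ gate of the series) and below the 0.901 to 0.931 of Monocyte with Neutrophil (its Gr-1+ gate). Over all genes tested, 10.8% were called higher in NK and 8.41% lower, and the arrays of the gates did not overlap in 64.5%.

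The genes of the sort markers were read first. Itgam, the CD11b chain of Mac-1, stood at 131 and 100.4 in NK, against 506 and 405 in Monocyte. All Monocyte arrays were above both NK arrays (-1.92 ± 0.56, adjusted p 0.014), though the call was lost without NK replicate 2 (adjusted p 0.097) or without Monocyte replicate 1 (adjusted p 0.10), or with the pseudocount at the 5th percentile (adjusted p 0.19). Its partner Itgb2, the CD18 chain, was at 4369 and 4312 in NK, against 5059 and 4800.3 in Monocyte, and was not called. Cd3e, the T cell gene for CD3ε, was dim throughout, at 10.6 and 41.3 in NK, against 16.0 and 11.03 in Monocyte. Ptprc, which encodes CD45, was bright in all 4 arrays, at 5364 and 5438 in NK, against 3893 and 4133 in Monocyte. Klrb1c, the gene of NK1.1, and Ly6g, the gene of an antigen of the Gr-1 antibody, had no probe set carrying their symbol alone.

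The labels were also set against lists of cell type genes, by their summed intensity. The patrolling monocyte list summed to 34129 and 31732 in NK, against 7874 and 11678 in Monocyte, and the macrophage identity list to 32740 and 27045 in NK, against 23031 and 26870 in Monocyte. The secondary and tertiary granule list, of neutrophil genes, summed to 27396 and 22302 in NK, against 135740 and 111610 in Monocyte. Other sums went with the labels. The NK receptor list summed to 20275 and 22362 in NK, against 1729.5 and 1773.8 in Monocyte. The classical monocyte list was bright in both gates and higher in Monocyte, at 44702 and 36089 in NK, against 47633 and 52138 in Monocyte. Beside the genes of its label, the gate labelled NK cells thus held signal of monocyte and macrophage genes. The gate labelled monocytes/macrophages held signal of neutrophil granule genes beside that of monocyte genes. Both are called by their gate here, and no other cell type name is given to them.

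The Monocyte replicates differed in the genes this comparison turns on. Of 54 myeloid genes called higher in NK, 44 were brighter in Monocyte replicate 2 than in replicate 1, with a median ratio of 1.705. Of the 47 called lower, 4 were brighter in replicate 2, with a median ratio of 0.811. The same ratio over the classical monocyte list was 2.051, while the NK replicates had a median ratio of 0.874 over those 54 genes. For this reason calls that ended without a given array are named beside the genes concerned.

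Cx3cr1, Adgre1, Gzma and Fcnb outline the pattern. Cx3cr1, the fractalkine receptor, had an intensity of 1860.3 and 2188 in NK, against 259 and 639 in Monocyte. Adgre1, which encodes the macrophage antigen F4/80, stood at 1481 and 1368 in NK, against 221 and 386 in Monocyte. Both NK arrays lay above both Monocyte arrays for each gene, by 2.29 ± 0.53, adjusted p 0.0029 for Cx3cr1 and by 2.26 ± 0.37, adjusted p 0.00012 for Adgre1. These values are of the brightest probe set, and another Cx3cr1 probe set gave 0.92, under the limit of 1. Without Monocyte replicate 1 the Cx3cr1 difference was 1.65, adjusted p 0.078. Gzma, the granzyme that NK cells store in bulk, was at 6563 and 6297 in NK, against 4.08 and 22.1 in Monocyte, a difference of 8.51 ± 0.41, adjusted p 4.9e-11. Fcnb, which encodes a ficolin of myeloid cells and was placed in the primary granule list, ran the other way. It was at 42.0 and 52.6 in NK, against 5117 and 3418 in Monocyte, a difference of -6.28 ± 0.52, adjusted p 4.5e-08. The arrays of the gates did not overlap for any of the 4 genes, as in 64.5% of all genes, and each difference was larger than the spread between replicates.

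The promoters of 5 genes, picked after their values were seen, are printed because they stand for the patterns that follow. They are a patrolling monocyte receptor (Cx3cr1), a second gene of that list (Treml4), members of the primary granule list (Fcnb and Elane) and a cytotoxic gene (Gzma). Each runs from 250 bases before to 50 after the gene's start, 5′ to 3′ on the gene's own strand, from RefSeq on GRCm38.p6. Capitals mark matches, on either strand, to GAGGAA (the core that the macrophage and granulocyte factor PU.1 prefers, TTCCTC on the opposite strand) or TTGCNNAA (a C/EBP motif, TTNNGCAA on the opposite strand). A T-box core, GGTGTGA, was searched as well. None of the matches overlapped another.
Cx3cr1, chr9:120068247-120068546, minus strand: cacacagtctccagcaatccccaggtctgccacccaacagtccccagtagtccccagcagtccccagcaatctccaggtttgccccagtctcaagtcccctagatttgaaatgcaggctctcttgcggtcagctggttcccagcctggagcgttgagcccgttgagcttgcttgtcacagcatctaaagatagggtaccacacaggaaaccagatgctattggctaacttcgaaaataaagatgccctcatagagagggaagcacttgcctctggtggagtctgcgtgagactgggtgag
Treml4, chr17:48264045-48264344, plus strand: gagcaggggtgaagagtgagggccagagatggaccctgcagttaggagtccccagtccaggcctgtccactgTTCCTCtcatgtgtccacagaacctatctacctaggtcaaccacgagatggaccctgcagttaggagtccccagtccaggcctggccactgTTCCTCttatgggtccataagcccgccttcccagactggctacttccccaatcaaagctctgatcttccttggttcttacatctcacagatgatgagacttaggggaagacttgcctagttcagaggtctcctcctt
Fcnb, chr2:28084829-28085128, minus strand: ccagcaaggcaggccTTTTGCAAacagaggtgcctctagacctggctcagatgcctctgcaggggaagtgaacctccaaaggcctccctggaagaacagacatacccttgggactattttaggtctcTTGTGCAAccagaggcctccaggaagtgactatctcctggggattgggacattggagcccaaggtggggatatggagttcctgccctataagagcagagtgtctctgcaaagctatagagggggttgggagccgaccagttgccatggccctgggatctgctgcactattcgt
Elane, chr10:79886062-79886361, plus strand: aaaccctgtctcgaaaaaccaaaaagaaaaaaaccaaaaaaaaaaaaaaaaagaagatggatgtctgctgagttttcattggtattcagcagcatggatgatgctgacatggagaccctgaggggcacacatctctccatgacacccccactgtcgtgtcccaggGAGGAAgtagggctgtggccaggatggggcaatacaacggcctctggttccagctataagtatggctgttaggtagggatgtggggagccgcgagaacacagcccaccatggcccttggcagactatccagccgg
Gzma, chr13:113100932-113101231, minus strand: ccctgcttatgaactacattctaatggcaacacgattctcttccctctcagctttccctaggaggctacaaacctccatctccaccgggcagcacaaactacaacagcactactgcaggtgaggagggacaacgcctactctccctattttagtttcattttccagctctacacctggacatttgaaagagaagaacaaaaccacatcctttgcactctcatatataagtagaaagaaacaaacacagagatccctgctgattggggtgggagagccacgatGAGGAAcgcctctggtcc

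The Treml4 window held 2 PU.1 cores, that of Fcnb 2 C/EBP motifs, those of Elane and Gzma 1 PU.1 core each, and that of Cx3cr1 no match. Over 32851 promoters in the table, 28.3% held the PU.1 core, 10.8% the C/EBP motif and 3.98% the T-box core. These shares count every promoter in the table, while those of the lists count only the first promoter of each gene. Of the myeloid genes called higher in NK, 41 of 54 had a promoter in the table, and 18 of these (43.9%) held the PU.1 core and 5 (12.2%) the C/EBP motif. Of those called lower, 37 of 47 had a promoter, with the PU.1 core in 25 (67.6%) and the C/EBP motif in 10 (27.0%). Among genes not called, 83 of 109 had a promoter, with these motifs in 36 (43.4%) and 11 (13.3%). The T-box core was in 2 promoters of genes called higher (4.88%), 2 of genes called lower (5.41%) and 3 of those not called (3.61%). All of these shares are descriptions of short windows.

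The 14 myeloid lists hold 245 genes, of which 217 had a probe set with their symbol alone and 210 passed the filter on low values. The other 7 of those on the array (Marco, Siglec1, Timd4, Ppard, Ptafr, Siglece and Ccl24) had no population mean above the filter. Of the 210 genes, 54 (25.7%) were called higher in NK, against 10.8% of all genes, and 47 (22.4%) lower, against 8.41%. Another 64 genes (30.5%) were not called and had a 95% interval of the difference that stayed above -1, so a decrease of 1 or more on the log2 scale lies outside it. These and the genes called higher make 118 genes (56.2%) that were as high or higher in NK in this sense, which allows decreases under 1. Itgb2, at -0.18 with both NK arrays below both Monocyte arrays, is counted among them. The share is smaller than the 64.1% of all 14044 genes that met the same rule, of which 53.3% came from the interval. For the last 45 genes (21.4%, and 27.5% of all genes) the interval reached -1 or below, so a decrease of that size was not excluded for them. In 9 of these (S100a9, Vcan, Fn1, S100a6, Vcam1, Egr1, Itga6, Csf2rb and Tnfrsf1a) the interval lay wholly below 0. The lists were drawn up with earlier results of these data known, so their counts describe them. The median difference over the 210 genes was 0.15, against 0.03 over all genes tested.

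**Figure D1:**
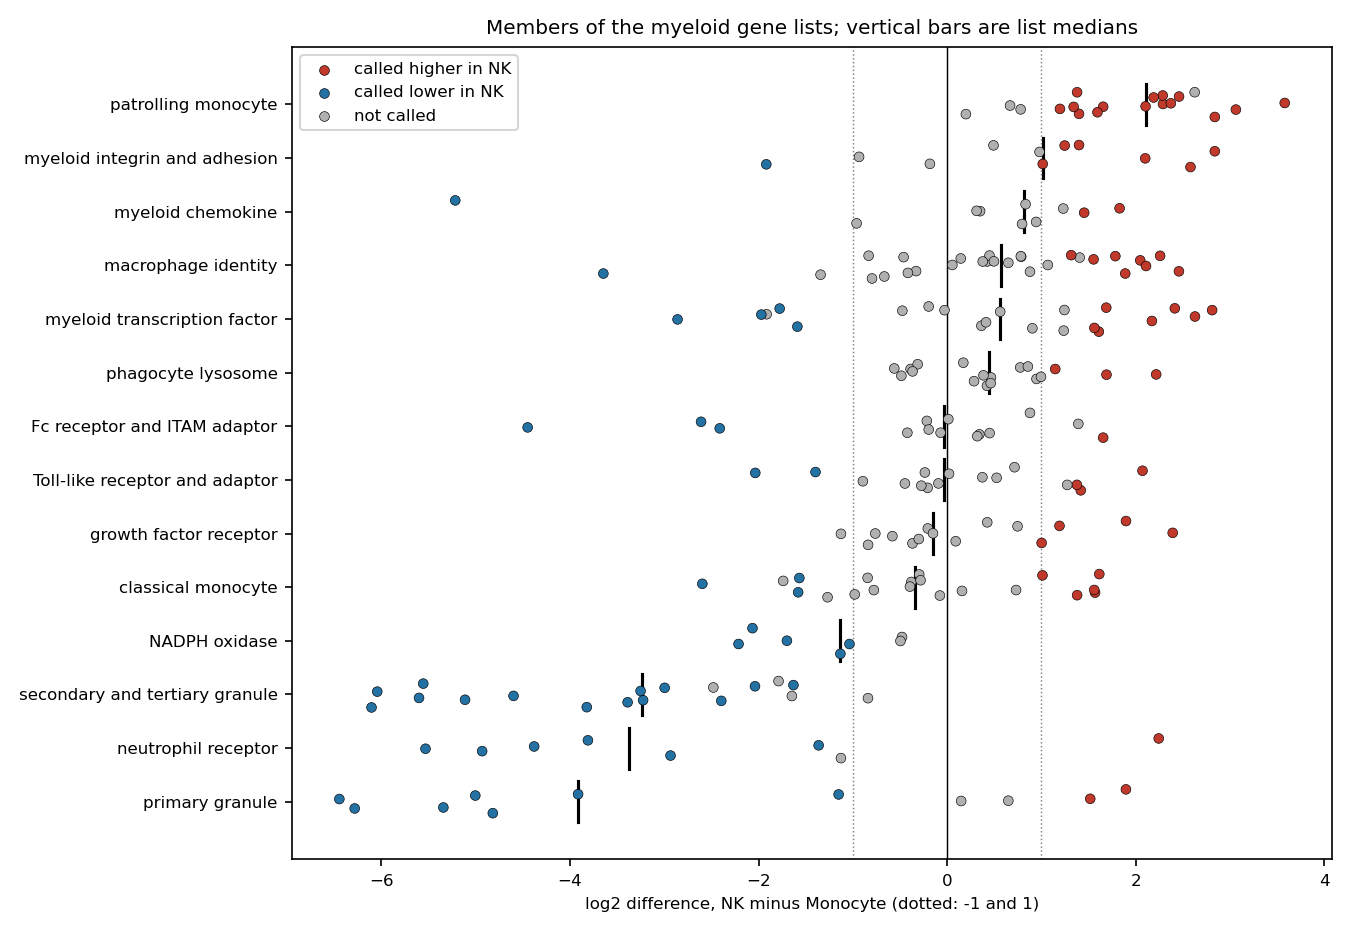
Differences between NK and Monocyte (x axis, log2 scale) for the tested members of 14 myeloid gene lists, each list on a row, with points coloured by call (higher in NK, lower in NK, not called) and black bars at the list medians. The patrolling list sits right of 0 with a median of 2.10, while the secondary and tertiary granule, neutrophil receptor and primary granule lists have medians of -3.24, -3.37 and -3.91.

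Single arrays moved the count of genes called higher more than that of genes called lower. Without Monocyte replicate 1, 27 myeloid genes were called higher and 39 lower. The counts were 54 and 44 without Monocyte replicate 2, 33 and 42 without NK replicate 1, and 38 and 41 without NK replicate 2. In every one of these fits all 54 genes kept a positive difference and all 47 a negative one, and 24 of the 54 and 37 of the 47 kept their call in all 4. Set against each Monocyte array on its own, the mean of the NK arrays lay above replicate 1 by a median of 2.18 on the log2 scale and above replicate 2 by 1.59 over the genes called higher. Over the genes called lower the medians were -3.14 and -2.99.

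**Figure D2:**
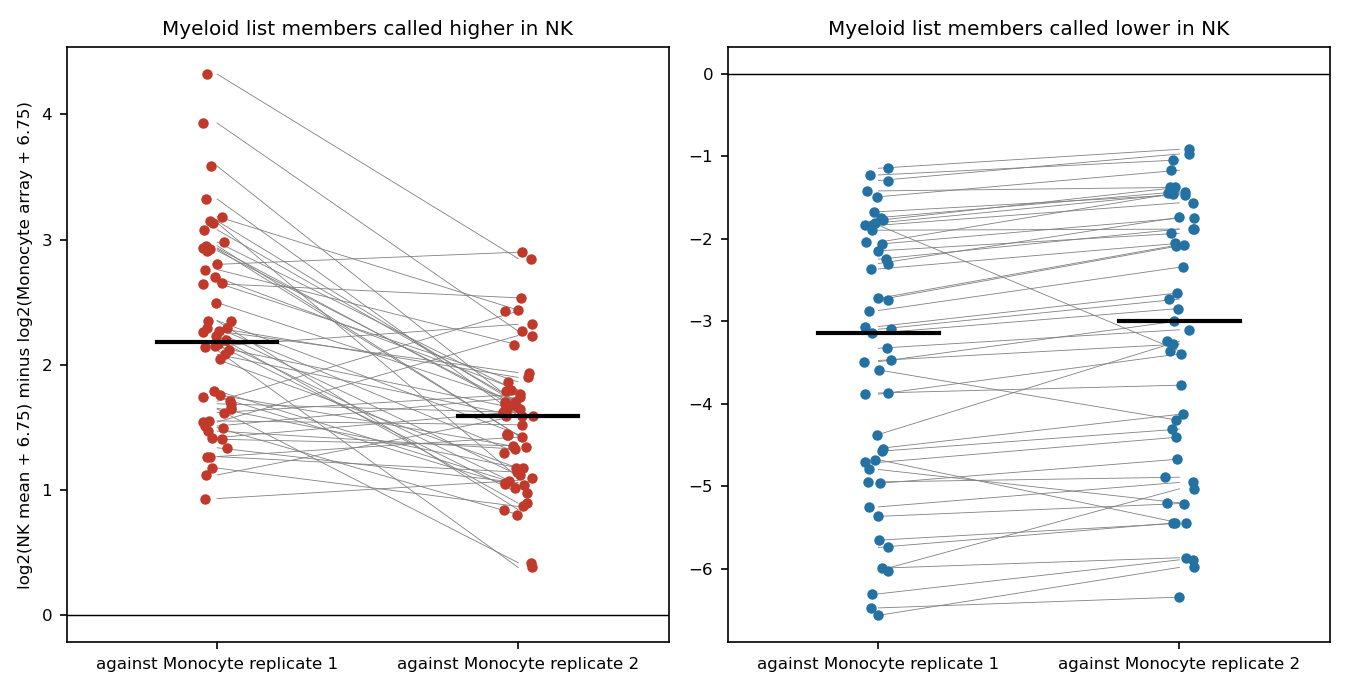
Log2 difference of the NK mean from each Monocyte array on its own (y axis), for the 54 myeloid genes called higher (left panel) and the 47 called lower in NK (right panel), with a line joining the points of a gene and black bars at the medians. All 54 points stay above 0 against either array, with medians of 2.18 against replicate 1 and 1.59 against replicate 2, and all 47 stay below 0.

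Of the 14 myeloid lists, that of patrolling monocyte genes had the largest share called higher in NK. Of 22 members 19 were tested, 15 were called higher in NK, none lower, and all 19 had a positive difference with arrays that did not overlap. Over all genes, 10.8% were called higher, and the arrays did not overlap, in either direction, in 64.5%. Eno3, which encodes the enolase of muscle and marks patrolling monocytes in mouse atlases, stood at 2181 and 1827 in NK, against 93.8 and 272 in Monocyte (3.58 ± 0.37, adjusted p 7.9e-07). The scavenger receptor gene Cd36 was at 523 and 836 in NK, against 38.2 and 136 in Monocyte (3.06 ± 0.51, adjusted p 0.00015). Itgax, the CD11c chain that pairs with CD18, was at 1145 and 876 in NK, against 139 and 129.5 in Monocyte (2.84 ± 0.31, adjusted p 1.1e-06). Monocyte arrays were low for all 3 genes, with replicate 2 the brighter of the pair for Eno3 and Cd36.

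Treml4, a receptor of the TREM family found on some monocytes and dendritic cells, was at 2548 and 2605 in NK, against 529 and 667 in Monocyte (2.10 ± 0.43, adjusted p 0.00095). Gngt2, a G protein γ subunit, stood at 629 and 486 in NK, against 64.7 and 157 in Monocyte (2.37 ± 0.49, adjusted p 0.0012), and Fcgr4, the activating IgG receptor of mouse patrolling monocytes, at 1361 and 1316 in NK, against 411 and 431 in Monocyte (1.65 ± 0.41, adjusted p 0.0049). The adhesion genes Spn (CD43) and Itgal (the αL chain of LFA-1), which lymphocytes express as well, differed by 1.38 and 1.40, though with the mean of all probe sets Spn was at 0.73 and not called. Apoc2, the apolipoprotein that activates lipoprotein lipase, was at 2230.2 and 2143 in NK, against 212 and 719.5 in Monocyte (2.46 ± 0.61, adjusted p 0.0049). Nr4a1, the nuclear receptor on which patrolling monocytes depend, was at 1679 and 1883 in NK, against 133 and 593 in Monocyte, a difference of 2.62 ± 1.04, adjusted p 0.068, and was not called. Ace, Lst1 and Stap1 also had positive differences short of a call (0.78, 0.67 and 0.20).

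Leaving out Monocyte replicate 1 reduced the patrolling genes called higher to 9. It ended the calls of Cx3cr1 (1.65, adjusted p 0.078), Apoc2 (1.59, adjusted p 0.13), Adgre4 (1.67, adjusted p 0.28), Clec4a3 (1.43, adjusted p 0.28), Pou2f2 (1.13, adjusted p 0.17) and Pecam1 (0.84, adjusted p 0.45). The last 4, an adhesion receptor, a lectin, the transcription factor Oct-2 and CD31, were also lost without either NK array, with adjusted p values of 0.083 to 0.21, and Pou2f2 without Monocyte replicate 2 (0.099). Without Monocyte replicate 2, Nr4a1 passed the threshold (3.68, adjusted p 0.037). Cd36, Eno3, Itgax, Treml4, Fcgr4, Gngt2, Spn, Itgal and Cd300ld kept their calls whichever array was left out.

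**Figure D3:**
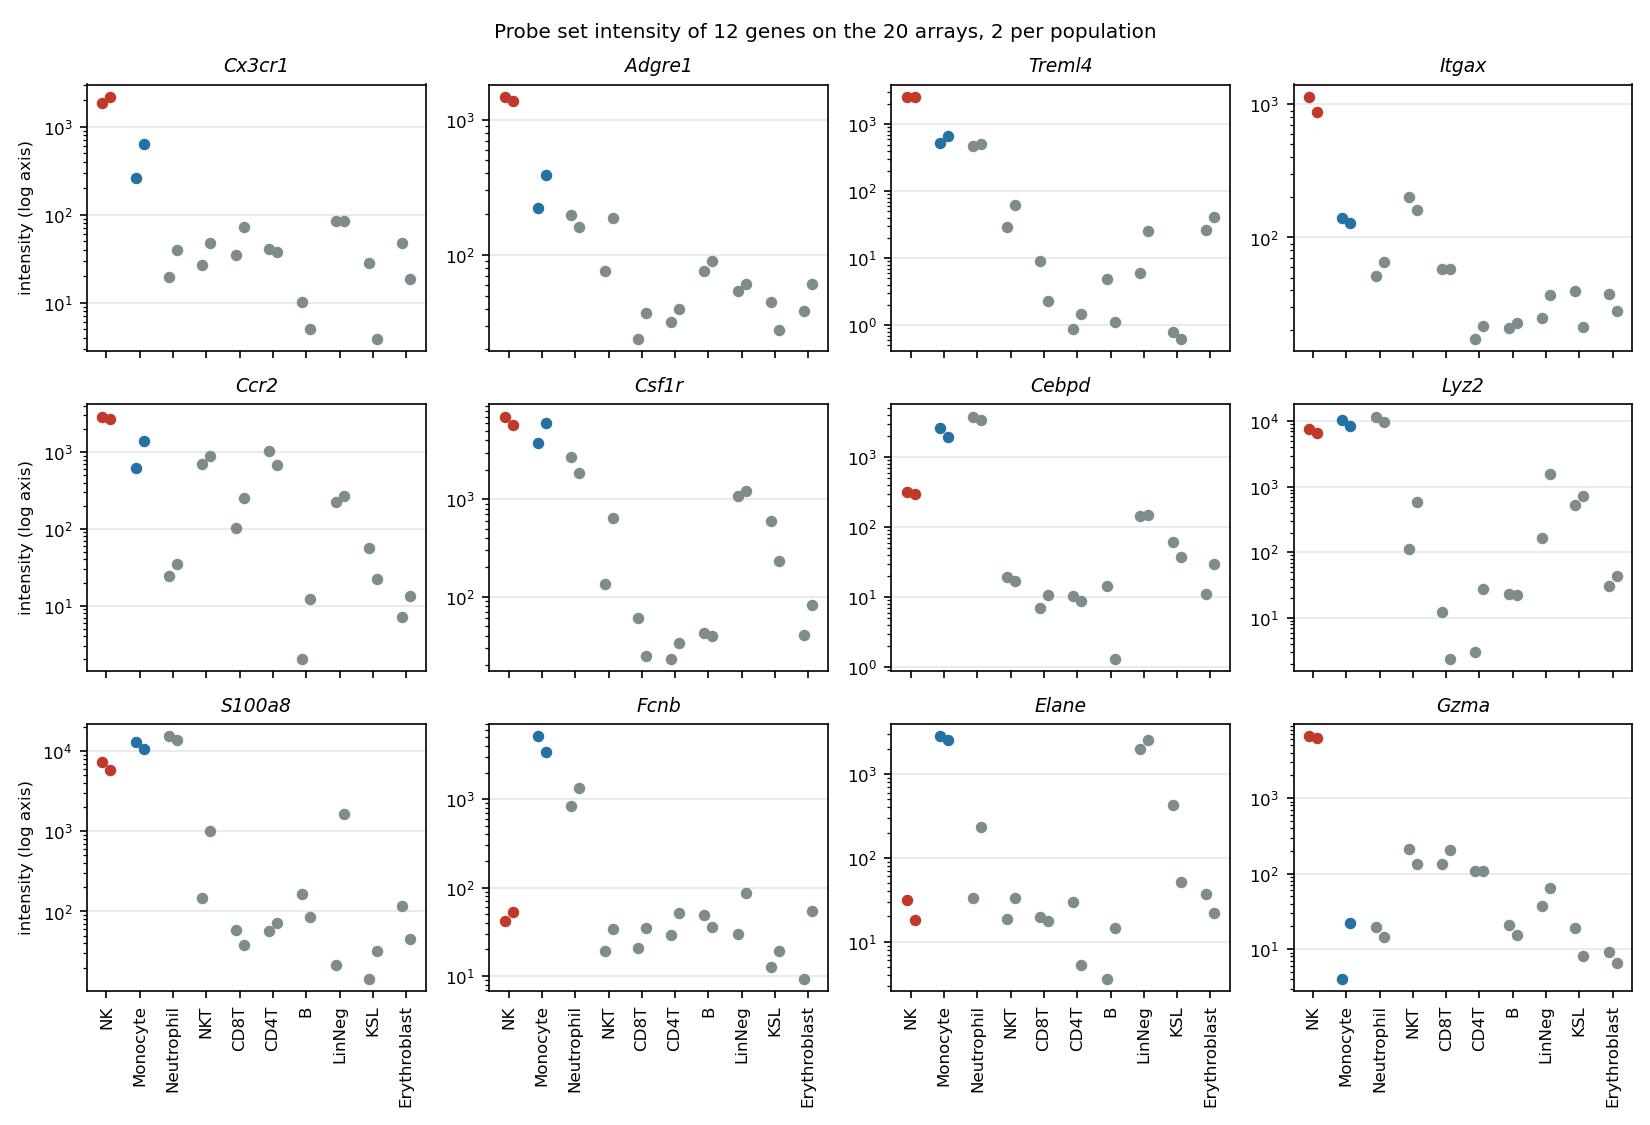
Intensity (y axis, log scale) of 12 genes in each of the 10 sorted populations, with a point per array (NK red, Monocyte blue, others grey). Cx3cr1, Adgre1, Treml4 and Itgax are above Monocyte in NK, Csf1r and Lyz2 are bright in both gates, and Cebpd, Fcnb and Elane are below Monocyte in NK.

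Classical monocyte genes split. Of 25 members 20 were tested, with 5 called higher in NK, 3 lower and a median difference of -0.34. Ccr2, the receptor that brings classical monocytes out of the marrow, was at 2905 and 2665 in NK, against 617 and 1411 in Monocyte (1.57 ± 0.45, adjusted p 0.014). Monocyte replicate 2 had more than Monocyte replicate 1, and without replicate 1 the difference was 0.98, adjusted p 0.23. The call was also lost without NK replicate 1 or 2 (adjusted p 0.081 and 0.056). Ms4a6b, a tetraspan membrane gene shared by lymphoid and myeloid cells, was at 2853 and 2369 in NK, against 564 and 1265 in Monocyte (1.61 ± 0.25, adjusted p 7.5e-05) and kept its call in every leave-out. Its neighbours Ms4a6c and Ms4a4c lost theirs without Monocyte replicate 1 (0.89 and 0.40), as did Ms4a6d (adjusted p 0.17). The Ms4a4c call also ended without NK replicate 1 or 2 (adjusted p 0.29 and 0.057) and that of Ms4a6d without NK replicate 1 (0.20).

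Thbs1, the matrix glycoprotein thrombospondin 1, was called lower in NK, at 23.6 and 22.5 in NK, against 99.5 and 299 in Monocyte (-2.60 ± 0.49, adjusted p 0.00049). Lyz2, lysozyme M of monocytes, macrophages and granulocytes, was among the brightest genes of both gates, at 7713 and 6596 in NK, against 10329 and 8516 in Monocyte, with an interval of -1.99 to 1.20 around a difference of -0.39. Cd14, the lipopolysaccharide co-receptor, stood at 280.4 and 283 in NK, against 179.8 and 666 in Monocyte (-0.30, interval -1.44 to 0.85). Fn1 and Vcan, which encode the matrix proteins fibronectin and versican, had differences of -1.74 and -1.27 that were not called on all arrays, and both passed without Monocyte replicate 1 (-2.64, adjusted p 0.032 and -1.96, adjusted p 0.018). The detoxifying gene Mgst1 and Ifitm6 were called lower (-1.57 and -1.58), and each call ended in every leave-out (adjusted p 0.098 to 0.18 and 0.059 to 0.18).

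Macrophage identity genes were called higher in NK more often than lower. Of 33 members 28 were tested. Of these 8 were called higher (28.6%, against 10.8% of all genes) and 1 lower (3.57%, against 8.41%). The highest mean of the 10 populations was in NK for 15, a count not made over all genes. Csf1r, the receptor on which monocytes and macrophages depend, was bright in all 4 arrays, at 7004 and 5725 in NK, against 3737 and 5948 in Monocyte, and its difference of 0.42 had an interval of -0.69 to 1.54. Its 2 other probe sets gave 2.02 to 2.16, and with the mean of all probe sets Csf1r was called higher in NK (1.54, adjusted p 0.031). The complement subunits C1qa and C1qc, made by tissue macrophages, were at 415 and 292 in NK, against 104 and 60.2 in Monocyte (2.05 ± 0.56, adjusted p 0.0097) and 267 and 276 in NK, against 88.7 and 52.4 in Monocyte (1.89 ± 0.67, adjusted p 0.042). Cd83, a surface protein of activated antigen-presenting cells, was at 892 and 799.6 in NK, against 119 and 184 in Monocyte (2.46 ± 0.55, adjusted p 0.0021). Slc11a1, the phagosomal metal transporter, was at 1004 and 1004 in NK, against 291 and 391 in Monocyte (1.55 ± 0.30, adjusted p 0.00062), and Cd68, a lysosomal glycoprotein of macrophages, at 2255 and 1771 in NK, against 405 and 817 in Monocyte (1.78 ± 0.44, adjusted p 0.005).

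Other macrophage genes were not called or were lower in NK. Mertk, Mrc1 and Axl had differences of 0.65, 1.07 and 0.79, none of them called. Slc40a1, the iron exporter ferroportin of macrophages that recycle red cells, was lower in NK, at 152 and 125 in NK, against 2134 and 1519.7 in Monocyte (-3.65 ± 0.69, adjusted p 0.00051). Vcam1, the adhesion molecule of erythroblastic island macrophages, was at 28.1 and 62.9 in NK, against 183 and 75.5 in Monocyte, a difference of -1.34 short of a call that passed without Monocyte replicate 2 (-1.94, adjusted p 0.032). The number of macrophage genes called higher was 3 to 5 when an array was left out. Adgre1, Cd83 and Slc11a1 kept their calls, while those of C1qa, C1qc, Cd68, Aif1 and Pld4 each ended in at least 1 such fit, at adjusted p values from 0.056 to 0.33.

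Transcription factors of myeloid cells went both ways, with 7 of 21 tested called higher in NK and 4 lower. Irf8, which drives monocytes and dendritic cells, stood at 1625 and 1416 in NK, against 165 and 468 in Monocyte (2.41 ± 0.45, adjusted p 0.00049), and Irf5, a mediator of Toll-like receptor responses, at 595 and 472 in NK, against 64.4 and 193 in Monocyte (2.17 ± 0.37, adjusted p 0.00018). Klf4, a factor of monocyte differentiation, was at 1961 and 2349 in NK, against 173 and 668 in Monocyte (2.63 ± 0.65, adjusted p 0.005). The Klf4 call ended without Monocyte replicate 1 (1.67, adjusted p 0.13), and so did that of Egr3, an early growth response factor, at 163 and 151 in NK, against 11.3 and 23.5 in Monocyte (difference 2.81 ± 0.74, adjusted p 0.0078 on all arrays and 2.44, adjusted p 0.084 without that one). Another Egr3 probe set had the opposite sign (-1.26), so the 2 probe sets disagree. Cebpd, a C/EBP factor of granulocytes, was lower in NK, at 314 and 294 in NK, against 2587 and 1947 in Monocyte (-2.86 ± 0.39, adjusted p 1.7e-05). Gfi1, which sets granulocyte against monocyte fate, differed by -1.78 ± 0.30, adjusted p 0.00015, and Tfec and Nfe2 by -1.97 and -1.59. Spi1, the gene of PU.1, was at 434 and 389 in NK, against 646 and 509 in Monocyte (-0.48, interval -0.96 to 0.01), and Cebpa at 73.2 and 73.7 in NK, against 62.4 and 115 in Monocyte (-0.20). Irf8, Irf5 and Maf kept their calls in every leave-out, as did Cebpd, Gfi1, Tfec and Nfe2, while those of Egr2 and Rara ended in 4 and 3 of them.

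Of 18 lysosomal genes of phagocytes tested, 3 were called higher in NK and none lower, with a median difference of 0.44. The share called higher, 16.7%, was not far from the 10.8% of all genes. Lgmn, the asparaginyl endopeptidase that trims antigens, was at 412 and 291 in NK, against 73.9 and 64.8 in Monocyte (2.22 ± 0.61, adjusted p 0.0098), and Ctsa, a carboxypeptidase, at 2255 and 1977 in NK, against 435 and 969 in Monocyte (1.69 ± 0.27, adjusted p 9.6e-05). Ctss and Ctsb, cathepsins of antigen-presenting and phagocytic cells, stood at 6543 and 5558 in NK, against 3494 and 5461 in Monocyte and 5628 and 4392 in NK, against 2589.9 and 3253 in Monocyte, with differences of 0.46 and 0.77, and Ctsb was called higher with the mean of all probe sets (1.39, adjusted p 0.0011). The Lgmn call ended without NK replicate 1 or Monocyte replicate 2 (adjusted p 0.086 and 0.0504), and that of Lipa, lysosomal acid lipase, without NK replicate 1 or Monocyte replicate 1 (adjusted p 0.081 and 0.15). Ctsa kept its call in all leave-outs.

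MHC class II genes, which monocytes and dendritic cells use to present antigen, were called higher in NK in 6 of 11 tested and lower in none (3 to 6 higher when an array was left out, 3 of them without NK replicate 1). The β chain gene H2-Ab1 was at 2902 and 1927 in NK, against 689.9 and 606 in Monocyte (1.86 ± 0.52, adjusted p 0.011), and Cd74, the invariant chain, at 3732 and 2641 in NK, against 1104 and 1086 in Monocyte (1.51 ± 0.28, adjusted p 0.00037). The H2-Ab1 call ended without Monocyte replicate 1, Monocyte replicate 2 or NK replicate 1 (adjusted p 0.051, 0.059 and 0.11), and that of Cd74 held. H2-Aa, the partner α chain, was at 4661 and 3663 in NK, against 3368 and 2489.7 in Monocyte, with a difference of 0.51 that was not called. B cell markers moved with this list, as given below, and their part in it was not tested.

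Of 16 Toll-like receptor and adaptor genes tested, 3 were called higher in NK and 2 lower, shares not far from those of all genes. The lower call of Irak3, an inhibitor of Toll-like receptor signalling, ended in every leave-out (adjusted p 0.061 to 0.092), so the count lower was 1 in each. Tlr1, which pairs with Tlr2 to read lipopeptides, was at 363 and 247 in NK, against 56.8 and 76.8 in Monocyte (2.07 ± 0.35, adjusted p 0.00015). Tlr2 itself was at 501 and 549 in NK, against 449 and 595 in Monocyte, and its difference of 0.02 was among the smallest of all myeloid genes. The endosomal receptor genes Tlr7 and Tlr13 differed by 1.42 and 1.38, calls that were lost in 3 of the 4 leave-outs, all but that of Monocyte replicate 2 (adjusted p 0.055 to 0.20). Tirap, an adaptor of Tlr2 and Tlr4, was lower in NK, at 243 and 177 in NK, against 1061 and 716 in Monocyte (-2.03 ± 0.27, adjusted p 1.5e-05). Tlr4, the receptor of lipopolysaccharide, was at 97.6 and 128 in NK, against 147 and 164 in Monocyte (-0.45, interval -1.06 to 0.16).

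Among 14 Fc receptor and ITAM adaptor genes tested, 1 (Fcgr4) was called higher and 3 lower, and the shared adaptors were not called. Tyrobp (DAP12), which NK receptors and myeloid TREM receptors both use, was at 5894 and 4850.1 in NK, against 5967 and 5275 in Monocyte (-0.07, interval -0.99 to 0.85). Hcst (DAP10), the adaptor of NKG2D, was at 368 and 389 in NK, against 408 and 344 in Monocyte (0.01), and Fcer1g at 3952 and 2949 in NK, against 2731 and 2654 in Monocyte (0.34). The 3 genes of the list called lower in NK were receptors that signal through DAP12. Clec5a, a lectin of that kind, stood at 16.0 and 20.9 in NK, against 595 and 493 in Monocyte (-4.45 ± 0.40, adjusted p 1.3e-07), Trem1 at 72.4 and 70.0 in NK, against 514 and 323 in Monocyte (-2.41 ± 0.47, adjusted p 0.00069), and Trem3 at 625 and 720.5 in NK, against 4955 and 3442 in Monocyte (-2.61 ± 0.42, adjusted p 0.00011). These 3 calls and that of Fcgr4 held in every leave-out.

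The NADPH oxidase, which makes superoxide in phagocytes, had 5 of 7 tested genes lower in NK and none higher. Ncf1, the p47phox subunit, was at 1625 and 1409 in NK, against 7839 and 6314 in Monocyte (-2.21 ± 0.32, adjusted p 3.3e-05), and Ncf4, the p40phox subunit, at 1439 and 1342 in NK, against 4976 and 4119 in Monocyte (-1.70 ± 0.24, adjusted p 2.3e-05). Hvcn1, the proton channel that balances the charge of the oxidase, was at 210.2 and 229 in NK, against 1067 and 826 in Monocyte (-2.06 ± 0.29, adjusted p 2.7e-05). Cybb, the catalytic gp91phox subunit, was at 3861 and 4265 in NK, against 5937 and 5387 in Monocyte and was not called (-0.48, interval -1.43 to 0.48). Cyba and Rac2, at -1.04 and -1.13, lay close to the limit of 1 and fell inside it without Monocyte replicate 1 (-0.92 and -0.97), as Cyba did without NK replicate 2 (-0.88).

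Integrin and adhesion genes were higher in NK for 6 of 11 tested and lower for 1, Itgam. Besides Itgax and Itgal, Itga4, the α4 chain that binds VCAM-1, was at 1549 and 1497 in NK, against 264 and 463 in Monocyte (2.10 ± 0.20, adjusted p 2.6e-07), and Icam1, the ligand of LFA-1 and Mac-1, at 674 and 524 in NK, against 89.9 and 97.7 in Monocyte (2.58 ± 0.37, adjusted p 3.3e-05). The CD11 chains that share CD18 thus differed in direction: Itgax and Itgal higher, Itgam lower, with CD18 itself at -0.18. Calls of Itgb7 and Itgb1 ended without Monocyte replicate 1 (0.38 and 0.86), and those of both genes ended in other leave-outs too. Other probe sets for Itgb1 ran from -0.06 to 1.93.

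Of 15 growth factor and cytokine receptor genes, 4 were called higher and none lower. Il10ra, the ligand-binding chain of the interleukin 10 receptor, was at 669 and 667 in NK, against 73.1 and 200.1 in Monocyte (2.39 ± 0.42, adjusted p 0.00023), and Ifngr1, the interferon γ receptor chain, at 742 and 912 in NK, against 323 and 393 in Monocyte (1.19 ± 0.22, adjusted p 0.00034). Csf2ra and Csf3r, the receptors for GM-CSF and G-CSF, were not called (-0.21 and -1.13), the second with arrays at 624 and 462 in NK, against 1401 and 993 in Monocyte. The other calls, of Il10rb (1.00) and Il13ra1 (1.90), each ended in at least 2 leave-outs, while those of Il10ra and Ifngr1 did not. Another Il10ra probe set gave 0.24, and the mean of its probe sets was not called (0.88, adjusted p 0.072). Tnfrsf1b, the second TNF receptor, stood in the neutrophil receptor list and was at 2625 and 3128 in NK, against 438 and 821 in Monocyte (2.24 ± 0.27, adjusted p 4.3e-06). Among 10 chemokine genes, Cxcl2, which attracts neutrophils, was lower in NK at 18.2 and 57.1 in NK, against 1130.1 and 1927 in Monocyte (-5.22 ± 0.64, adjusted p 6.0e-06). Ccl4 and the platelet factor gene Pf4 were called higher (1.83 and 1.45). Both calls ended without Monocyte replicate 1 or NK replicate 2 (Ccl4 adjusted p 0.11 and 0.089, Pf4 0.052 and 0.19), and that of Pf4 also without Monocyte replicate 2 (0.072).

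Primary granule genes were the list with the lowest median, -3.91. Of 11 tested, 7 were called lower and 2 higher. Elane, neutrophil elastase, had 31.6 and 17.9 in NK, against 2797 and 2553 in Monocyte, the largest decrease of all genes named (-6.45 ± 0.77, adjusted p 4.2e-06). Prtn3, proteinase 3, was at 59.4 and 31.4 in NK, against 2143 and 1924 in Monocyte (-5.34 ± 0.57, adjusted p 1.1e-06). Mpo, myeloperoxidase, was at 78.2 and 65.6 in NK, against 2179.8 and 2887 in Monocyte (-5.00 ± 0.53, adjusted p 8.9e-07), and Ctsg, cathepsin G, at 15.5 and 23.8 in NK, against 311 and 479 in Monocyte (-3.91 ± 0.55, adjusted p 2.7e-05). Ms4a3, a membrane gene of granulocyte and monocyte progenitors, was at 46.7 and 47.7 in NK, against 1677 and 1367 in Monocyte (-4.82 ± 0.36, adjusted p 1.1e-08). In each of these 5 genes and in Fcnb, every Monocyte array was far above both NK arrays. Of the 11 genes, 7 were called higher in Monocyte than in Neutrophil, against 9.46% of all genes, among them Elane by 4.77 (adjusted p 0.00023), Prtn3 by 3.48 (adjusted p 0.00026) and Fcnb by 1.99 (adjusted p 0.011) on the log2 scale.

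The members called higher are not proteases of these granules. Cst7, an inhibitor of cathepsins C and L that cytotoxic lymphocytes also express, was at 447 and 445 in NK, against 95.7 and 138 in Monocyte (1.90 ± 0.48, adjusted p 0.0056), and Calr, the chaperone calreticulin of the endoplasmic reticulum, at 1740.4 and 1247 in NK, against 505 and 516 in Monocyte (1.52 ± 0.17, adjusted p 2.3e-06). Srgn, the proteoglycan serglycin that packs both granzymes and granulocyte proteases, was at 4405 and 3939.8 in NK, against 2637 and 2674 in Monocyte and was not called (0.65). The calls of Cst7 and Igsf6 ended without Monocyte replicate 1 (adjusted p 0.069 and 0.17), and that of Igsf6 in the other 3 leave-outs as well.

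Secondary and tertiary granule genes followed, with 14 of 18 tested lower in NK, none higher, and arrays that did not overlap for any of the 18. Over all genes, 8.41% were called lower, and the arrays did not overlap in 64.5%. Mmp9, gelatinase B of tertiary granules, was at 64.8 and 77.7 in NK, against 6160.1 and 4626 in Monocyte (-6.10 ± 0.44, adjusted p 7.5e-09), and Mmp8, neutrophil collagenase, at 97.3 and 83.5 in NK, against 4887 and 4239 in Monocyte (-5.56 ± 0.43, adjusted p 2.0e-08). Olfm4, a secondary granule protein, stood at 6.98 and 23.8 in NK, against 1404 and 1285 in Monocyte (-6.04 ± 0.51, adjusted p 5.4e-08), and Cd177, a neutrophil surface glycoprotein, at 206 and 161 in NK, against 7229 and 5882 in Monocyte (-5.11 ± 0.60, adjusted p 3.4e-06). Itgb2l was at 81.2 and 63.6 in NK, against 4229 and 3430.1 in Monocyte (-5.60 ± 0.39, adjusted p 4.1e-09), but its other probe sets ran from -0.51 to 0.05. Ltf, lactoferrin, was at 1131 and 893 in NK, against 10209 and 8739.8 in Monocyte (-3.22 ± 0.56, adjusted p 0.00021), and Camp, the cathelicidin, at 1437 and 1256 in NK, against 11928 and 9713 in Monocyte (-3.00 ± 0.99, adjusted p 0.03). The Camp call ended in every leave-out (adjusted p 0.079 to 0.14), and that of Hp, haptoglobin, without Monocyte replicate 1 (0.073). The 12 other calls held.

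Several granule genes were bright in NK too, as Ltf and Camp show. S100a8, the calgranulin A of neutrophils and monocytes, was at 7400.4 and 5739.8 in NK, against 12905 and 10550.1 in Monocyte (-0.84), and its partner S100a9 at 3025 and 1977 in NK, against 14773 and 12652 in Monocyte (-2.48 ± 0.93, adjusted p 0.056). Ngp was at 3813 and 3034 in NK, against 12023 and 9459 in Monocyte (-1.65 ± 0.93, adjusted p 0.21), and Chil3, a chitinase-like protein of myeloid precursors, at 2905 and 2370.2 in NK, against 10011 and 8229 in Monocyte (-1.79 ± 1.28, adjusted p 0.34). The arrays of the gates did not overlap for S100a9, Ngp or Chil3, and none was called in the fit over 20 arrays, in which their spread is estimated from all populations. With the 4 arrays of these gates alone the adjusted p was 0.00012, 0.00043 and 0.00021. All 18 genes of the list had their highest mean in Neutrophil, and 13 were higher in NK than in NKT, against 6.73% of all genes.

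**Figure D4:**
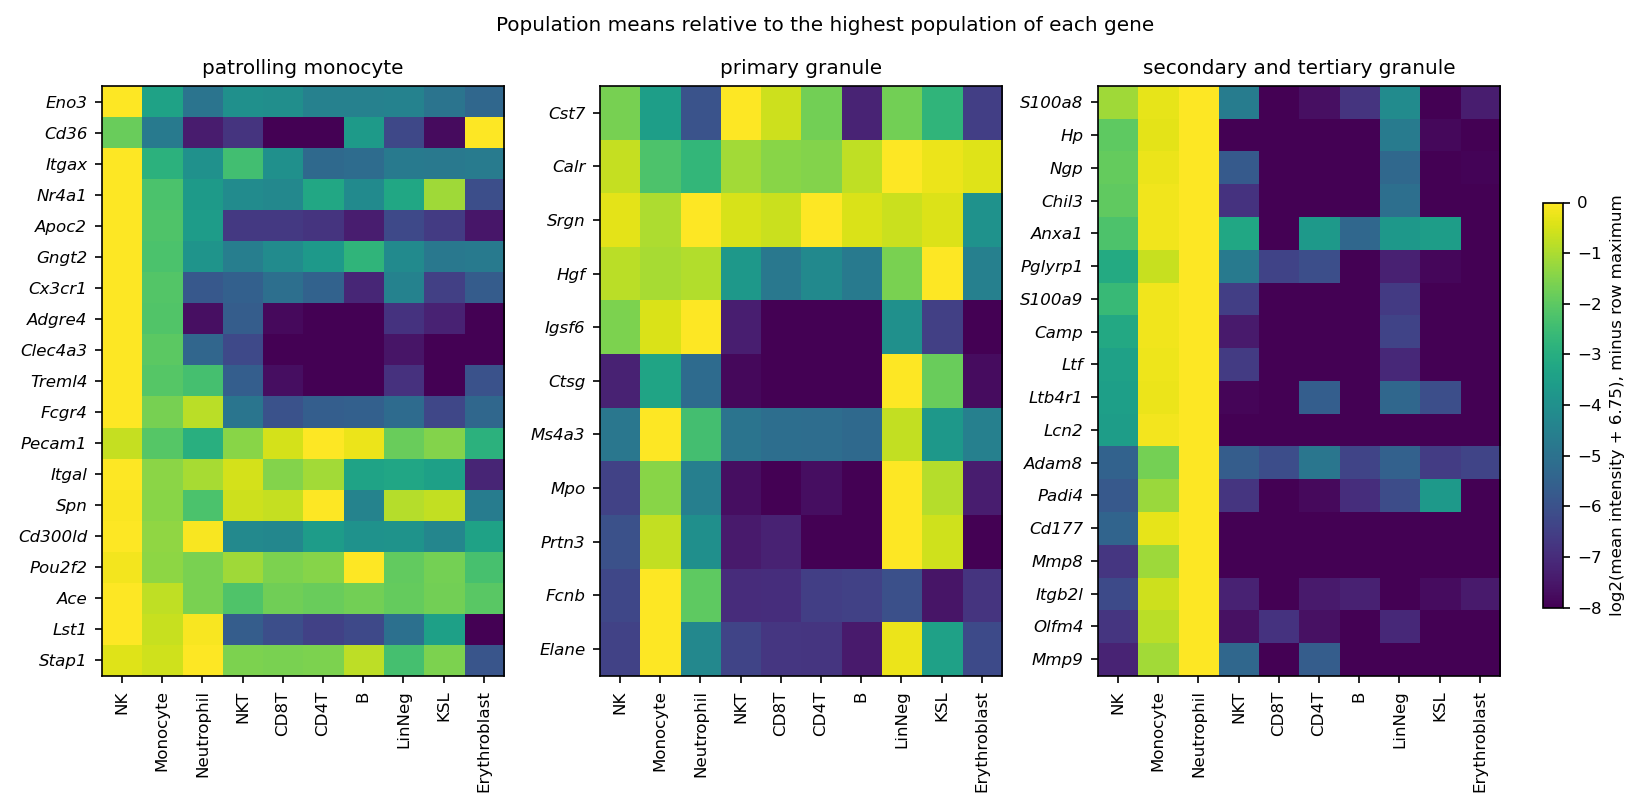
Mean intensity of each tested gene of the patrolling, primary granule and secondary and tertiary granule lists (rows) in the 10 populations (columns), as a log2 difference from the row's highest population, with the colour scale cut at -8. Patrolling genes peak in NK in 14 of 19 rows, and all 18 secondary and tertiary granule genes peak in Neutrophil. These counts were not made over all genes.

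Receptors of neutrophils gave 6 lower, 1 higher (Tnfrsf1b) and 1 not called (Csf3r) of 8 tested. Cxcr2, the receptor for CXCL2, was at 3.28 and 1.85 in NK, against 599 and 298 in Monocyte (-5.53 ± 0.39, adjusted p 4.8e-09). Ccr1, a chemokine receptor of myeloid cells, was at 18.9 and 26.5 in NK, against 902 and 867 in Monocyte (-4.93 ± 0.59, adjusted p 4.4e-06), and Il1r2, the interleukin 1 decoy receptor, at 12.95 and 25.8 in NK, against 601 and 449 in Monocyte (-4.38 ± 0.46, adjusted p 8.7e-07). Clec4d and Clec4e, a pair of lectins that read fungal and mycobacterial glycolipids, differed by -3.81 and -1.36. The Clec4e call ended without Monocyte replicate 1 or NK replicate 1 (adjusted p 0.082 and 0.11).

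The 8 bright myeloid genes nearest to equal levels were Hcst, Tlr2, Tyrobp, Plac8, Cd93, Npc2, Itgb2 and Stap1. Plac8, a small protein of myeloid cells, NK cells and plasmacytoid dendritic cells, was at 5603 and 4193 in NK, against 4902 and 5335 in Monocyte (-0.08, interval -0.63 to 0.48). Cd93, a receptor of monocytes and endothelium, was at 217 and 143 in NK, against 150.4 and 164 in Monocyte (0.16, interval -0.44 to 0.75, with another probe set of the opposite sign), and Npc2, the lysosomal cholesterol carrier, at 4813 and 4133 in NK, against 3390.0 and 4625 in Monocyte (0.17, interval -0.17 to 0.52). Stap1, an adaptor of signalling, was at 487 and 534 in NK, against 455 and 432 in Monocyte (0.20, interval -0.30 to 0.70). A gene that was not called is not shown to be equal in the gates, and these intervals give the differences the arrays allow.

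The populations around these gates place the genes. Among the 54 myeloid genes called higher in NK, the highest of the 10 population means was in NK for 34 and in Neutrophil for 1 (Tlr13). For the other 19 it was in a further population, such as B for Irf8, Cd83 and Egr3, NKT for Icam1 and Erythroblast for Cd36. Among the 47 called lower it was in Neutrophil for 37, in Monocyte for 4 and in a further population for 6. The choice of these genes by NK against Monocyte bars Monocyte from the first count and NK from the second, and favours NK in the first. How many of all genes peak in each population was not counted. Of the 109 not called it was in Neutrophil for 42, in NK for 26, in Monocyte for 10 and in a further population for 31. NKT, the other gate that shares NK1.1, was set against NK: 122 of the 210 myeloid genes (58.1%) were higher in NK than in NKT, against 6.73% of all genes, and 7 were lower, against 4.39%. Of the 54 genes above, chosen by the same NK arrays, 33 were higher in NK than in NKT, 1 was lower and 20 were not called. For Cx3cr1 the NK minus NKT difference was 5.57 (adjusted p 3.5e-07), for Adgre1 3.50 (adjusted p 1.2e-06), for Csf1r 4.38 (adjusted p 7.0e-06) and for Lyz2 4.75 (adjusted p 0.00017).

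Lymphoid genes were set against the label of the NK gate. Of 26 NK receptor genes tested, 20 were called higher in NK than in Monocyte and none lower, with a median of 3.18. Against NKT, 4 were called higher in NK and 5 lower, so as a list they did not set NK apart from that gate. Klra8 (Ly49H), which reads a protein of mouse cytomegalovirus, was at 2941 and 3236 in NK, against 2.11 and 7.06 in Monocyte (8.13 ± 0.56, adjusted p 3.9e-09). Klre1 and Klrc1, lectin-like receptors of NK cells, stood at 1758 and 2335 in NK, against 8.13 and 2.47 in Monocyte (7.44) and 1076 and 1303 in NK, against 0.628 and 0.734 in Monocyte (7.33), and Klra7 (Ly49G) at 1052 and 1281 in NK, against 0.396 and 4.29 in Monocyte (7.04). The Ly49 and NKG2 genes are near-identical families, so their probe sets may share signal. Ncr1 (NKp46) was at 585 and 737 in NK, against 14.2 and 16.0 in Monocyte (4.93 ± 0.50, adjusted p 6.0e-07), and the transcription factors Tbx21 (T-bet) and Eomes at 637 and 598 in NK, against 5.97 and 3.56 in Monocyte (5.77) and 946 and 1018 in NK, against 7.61 and 13.4 in Monocyte (5.86).

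The list of NK transcription factors had 13 of 17 called higher and none lower, with a median of 1.73. Against NKT, 1 of them was called higher in NK and 4 lower. Cytotoxic genes were called higher than in Monocyte in 14 of 19 tested and lower in 3. Against NKT, 3 of these were called higher in NK and 4 lower. Beside Gzma, the chemokine Ccl5 was at 5089.7 and 4458 in NK, against 29.8 and 16.8 in Monocyte (7.35), the lysosomal protease Ctsw at 2196 and 2124 in NK, against 10.2 and 10.3 in Monocyte (6.99) and perforin, Prf1, at 690.4 and 889.7 in NK, against 17.4 and 22.4 in Monocyte (4.90). The genes lower in NK (Rab27a, Stx11 and Lyst, at -1.44, -1.16 and -1.23) encode proteins of granule transport and release that myeloid cells use too. All 8 lymphocyte GTPase genes of the Gimap family were higher, with Gimap4 at 3871 and 3892 in NK, against 17.4 and 26.8 in Monocyte (7.09). All 8 were called lower in NK than in NKT. Ctla2a, a cysteine protease inhibitor of lymphocytes, and F2r, the thrombin receptor, completed the 10 largest increases (6.59 and 6.48). Among these 10 genes, Gzma and Klra8 had their highest population mean in NK and the others in NKT.

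**Figure D5:**
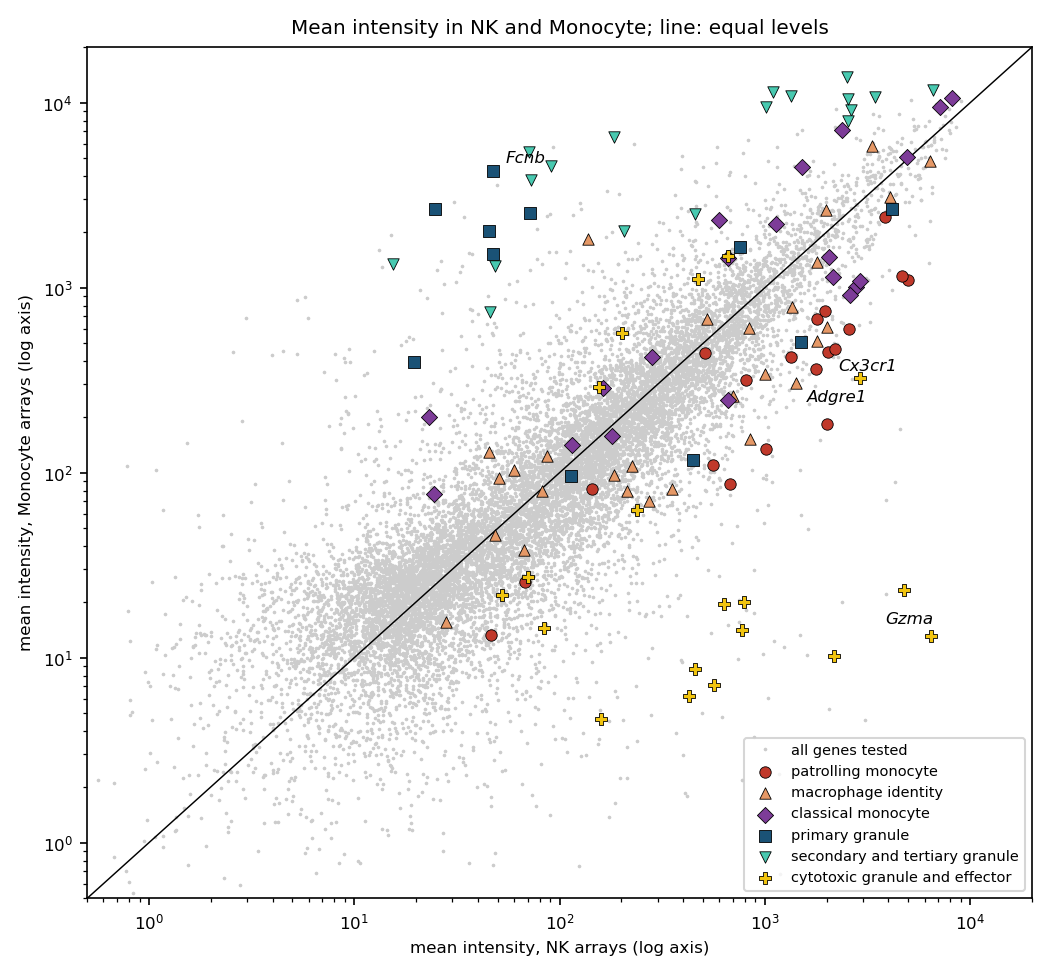
Mean intensity in NK (x axis, log scale) against Monocyte (y axis, log scale) for all 14044 genes tested, with 6 gene lists in colour and a line at equal levels. Patrolling genes lie below the line (higher in NK), classical genes on both sides of it, and all secondary and tertiary granule genes above it, as is Fcnb, at 42.0 and 52.6 in NK and 5117 and 3418 in Monocyte.

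With uncharacterised symbols passed over, the 10 largest decreases in NK over all genes held 6 outside the myeloid lists. Prom1 (CD133), a membrane protein of progenitors, was at 5.60 and 20.9 in NK, against 2029 and 1163 in Monocyte (-6.38 ± 0.51, adjusted p 3.2e-08). Lrg1, a secreted glycoprotein that neutrophils store, was at 28.9 and 32.3 in NK, against 3457 and 2330.0 in Monocyte (-6.25 ± 0.34, adjusted p 1.4e-10), and Lbp, the lipopolysaccharide-binding protein, at 4.07 and 7.505 in NK, against 1030.0 and 746 in Monocyte (-6.15 ± 0.54, adjusted p 1.0e-07). Mapk13, a p38 kinase, stood at 4.79 and 5.73 in NK, against 989 and 736 in Monocyte (-6.16 ± 0.35, adjusted p 3.2e-10). Ica1 and the organic anion transporter gene Slco4c1 were at 2.07 and 3.88 in NK, against 820.4 and 558 in Monocyte (-6.14) and 14.6 and 12.6 in NK, against 1367 and 1234 in Monocyte (-6.01). NK arrays were near the pseudocount for Mapk13, Lbp and Ica1, so the size of those differences depends on it.

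Mitosis genes were all lower in NK: 19 of 19 tested were called, with a median of -2.20 and 17 to 18 called when an array was left out. Mki67, the proliferation antigen, was at 473 and 587 in NK, against 3757 and 3354 in Monocyte (-2.74 ± 0.39, adjusted p 3.0e-05), and Cdk1, the kinase that starts mitosis, at 104 and 153 in NK, against 1095 and 809 in Monocyte (-2.83 ± 0.26, adjusted p 1.6e-07). The summed intensity of the list was 2544.5 and 3034 in NK, against 15621 and 13341 in Monocyte.

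Markers of other cell types were read for the same arrays. B cell markers were called higher in NK in 6 of 9 tested, with a summed intensity of 767 and 1035 in NK, against 128 and 204 in Monocyte. Ms4a1 (CD20) was at 202 and 371 in NK, against 14.0 and 21.2 in Monocyte, and Pax5, the factor that defines B cells, at 38.6 and 49.96 in NK, against 22.1 and 38.6 in Monocyte without a call. The calls of Blk and Fcrla, B cell kinase and Fc receptor-like genes, ended without Monocyte replicate 1 (adjusted p 0.087 and 0.067) or NK replicate 2 (0.054 and 0.079). T cell markers were called higher in 4 of 11 tested, with sums of 969 and 898 in NK, against 306 and 372 in Monocyte. Of these, Cd3g and Lat were at 107 and 109 in NK, against 3.56 and 2.66 in Monocyte and 159.9 and 153 in NK, against 5.98 and 4.41 in Monocyte, while Cd3e, Cd4, Cd8b1, Cd5 and Cd6 were below 50 in every array. Conventional dendritic cell markers were higher in 3 of 9 (Zbtb46, Cd209a and Dpp4), with Xcr1, which marks their cross-presenting form, at 12.4 and 3.41 in NK, against 30.01 and 26.3 in Monocyte, and their sum was carried by Cd24a at 271 and 518 in NK, against 5622 and 4716 in Monocyte. The Zbtb46 and Cd209a calls ended in 2 and 4 of the leave-outs. Plasmacytoid markers were higher in 3 of 8 (Ly6d, Tcf4 and Bst2), and their defining gene Siglech was at 2.83 and 24.3 in NK, against 22.2 and 13.1 in Monocyte. The Bst2 call ended without NK replicate 1 (difference 1.03) or Monocyte replicate 1 (0.55). Summed over the 8 genes, the plasmacytoid markers stood at 639.6 and 681 in NK, against 247 and 359.6 in Monocyte.

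In the reverse direction, Siglecf and Alox15 of 5 eosinophil markers were lower in NK, with sums of 39.6 and 49.3 in NK, against 143 and 357 in Monocyte. The Alox15 call ended without NK replicate 1, NK replicate 2 or Monocyte replicate 2 (adjusted p 0.11, 0.073 and 0.26). Hdc, histidine decarboxylase, was the only one called of 7 basophil and mast cell markers, at 26.4 and 42.2 in NK, against 2930.5 and 1886 in Monocyte (-5.87 ± 0.56, adjusted p 2.9e-07), while Mcpt8 and Fcer1a were not called (-0.17 and 0.42). Plasma cell markers were higher in 3 of 7 tested (Sdc1, Mzb1 and Tnfrsf13b, with 0 to 2 when an array was left out and 0 without NK replicate 2), and their sums were 2841 and 3222 in NK, against 3387 and 3290.5 in Monocyte. Of 8 megakaryocyte markers, Pf4 was called higher and Gp9 lower. The part of all these cell type markers in the myeloid results was not tested. On the technical side, control probe sets at the 3′ end of Gapdh exceeded those at its 5′ end by a ratio of 3.73 and 3.47 in NK, against 3.34 and 3.10 in Monocyte, and the part of this in the results was not tested either.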

How the data were processed

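Total RNA was extracted with ISOGEN and amplified in 2 cycles from 3000 cell equivalents, per the labels' protocols. The deposited values are linear intensities between 0.0251 and 19431, with 1 value for a probe set on an array. Their trimmed mean, leaving out 2% at each end, was 100 on every array, so the authors had scaled the arrays. Summarisation software and background correction: not given in the sources used here. With 2 arrays per group, precision is limited by their number.

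From the deposited intensities log2(intensity + 6.75) was computed, the pseudocount being their 25th percentile. Of 45101 probe sets, 64 controls were left out. By the platform annotation 34945 had 1 symbol, 932 several and 9160 none, and only the first kind was used. RefSeq's table for GRCm38.p6 changed 0 symbols. The brightest probe set stood for each of 18193 genes, and 14044 genes with a population mean over the median of the values (log2 of 4.89) entered the test. Amplification favours 3′ ends, which can weigh on probe sets far from them.

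All 20 arrays entered limma 3.58.1 (R 4.3.3; lmFit, then eBayes with a trend) with 1 factor of 10 populations, giving 10 residual and 8.46 prior degrees of freedom, so that the spread was shared by all populations. A call needed a Benjamini-Hochberg adjusted p under 0.05 and a log2 difference of at least 1. The steps were tested on simulated data. The same replicate number did not pair NK with Monocyte arrays (correlation of deviations 0.025), and no block was used.

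Named genes were the 10 largest called differences in each direction among genes above the median level whose arrays did not overlap, over all genes and over the myeloid lists. Uncharacterised symbols were passed over. The 8 uncalled myeloid genes nearest 0 with both means above 100, the sort and marker genes, and any list member could be named too. The 32 lists (493 genes, 443 with a probe set of their own, 431 tested), the members and the tests were chosen with earlier results of these data known. Of the genes named by size or as markers, 17 had a further probe set that passed the filter, in 3 of them with the opposite sign. Alternatives covered the pseudocount, scaling, filter, choice of probe set, arrays in the fit, variance trend, a test against a minimum difference, a replicate block and leaving out each array.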

Additional observations from a re-analysis of the deposited data

How the results depend on the processing

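Of 14044 genes tested, 2702 were called, 1521 higher and 1181 lower in NK, and among myeloid genes 101, 54 and 47. Testing against a minimum log2 difference of 1 gave 746 genes (370 higher, 376 lower) and 39 myeloid genes (9 higher, 30 lower), since it asks for more than a difference from 0, and Cx3cr1 was not among them (adjusted p 0.17). Leaving out single arrays gave 1857 to 2762 genes (1010 to 1626 higher, 847 to 1136 lower) and 66 to 98 myeloid genes (27 to 54 higher, 39 to 44 lower), the lone array of a gate being assumed to vary like the other groups. The lowest counts came without Monocyte replicate 1, and the cause was not tested. As a block, the replicate number, which did not pair these arrays, gave 2709 genes (1528 higher, 1181 lower) and 52 and 47 myeloid genes, ending the calls of Ms4a4c (adjusted p 0.051) and Pecam1 (0.055) among them. The pseudocount, quantile normalization, median centring, the filters, the choice of probe set, the 4 arrays alone and the fit without a trend gave 37 to 55 myeloid genes higher and 40 to 53 lower, and over all alternatives 49.6% to 58.9% of the calls were higher. No named gene changed direction in a called value. Only 2 arrays per gate and a spread pooled over 10 populations limit all calls, and a dim gene's fold depends on the pseudocount.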

Other observations

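Genes of ribosome biogenesis were higher in NK in 11 of 18 tested and lower in none (8 to 12 higher when an array was left out), against 10.8% of all genes called higher. Fbl, the methyltransferase fibrillarin, was at 864 and 683 in NK, against 206 and 251 in Monocyte (1.73 ± 0.30, adjusted p 0.00021 by limma), and Npm1, nucleophosmin, at 2568 and 2261 in NK, against 671 and 1119 in Monocyte (1.47 ± 0.23, adjusted p 7.3e-05). Of 19 DNA replication genes tested, 7 were lower in NK and none higher (5 to 8 lower when an array was left out). Rrm2, the ribonucleotide reductase subunit of dividing cells, was at 446 and 574 in NK, against 3217 and 2358 in Monocyte (-2.43 ± 0.34, adjusted p 2.9e-05), while Mcm2, a helicase subunit, was at 229 and 309 in NK, against 329 and 303 in Monocyte and was not called (-0.24).

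Interferon response genes were higher in NK in 5 of 17 tested, with none without Monocyte replicate 1, 1 without NK replicate 1, and 5 without either of the others. Mx1, an antiviral GTPase, was at 307 and 242 in NK, against 46.6 and 128 in Monocyte (1.72 ± 0.46, adjusted p 0.0083, and 1.05, adjusted p 0.18, without Monocyte replicate 1), and Irf7, the master factor of the response, at 806 and 455 in NK, against 236 and 457 in Monocyte and not called (0.87).

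Car2, carbonic anhydrase 2 of red cells and other tissues, was the only erythroid marker called of 9 tested, at 817 and 1156 in NK, against 73.9 and 33.4 in Monocyte (4.10 ± 0.38, adjusted p 2.0e-07), while Hba-a1, an α globin gene, was at 17.2 and 27.6 in NK, against 10.6 and 31.4 in Monocyte. Jchain, the joining chain of secreted antibodies, was bright in a single array, NK replicate 2, at 15.3 and 506 in NK, against 16.7 and 17.0 in Monocyte (2.17 ± 0.89, adjusted p 0.079).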
